A study of Mus musculus with 10 samples.

Results

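The genes of glucose uptake, glycolysis, lactate handling and pyruvate entry into mitochondria were followed in activated mouse T cells with and without the transcription factor KLF13. The set held 35 genes, listed by name for the known steps of the pathway, with no measured value in the rule. Of these, 31 were named by single-gene probe sets in both deposited tables, and all 31 were bright enough to be tested, among 12485 tested genes of 19048 named in both tables. The other 4 genes, Gpi1, Gapdh, Eno1 and Mpc2, had single-gene probe sets only in the exon-level table and are given as values with no test.

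RNA came from CD3+ T cells of the spleen of 5 wild-type (WT) and 5 KLF13 knockout (KO) mice, which the labels name as separate animals. All mice were males of the Balb/c background, aged 12 weeks. The cells of both genotypes were cultured for 4 days with plate-bound anti-CD3 and soluble anti-CD28 antibodies, so there was no unstimulated group, and RNA was read on Affymetrix arrays. Where in the Klf13 gene the deletion lies, and whether it acts in all cells of the animal, the sources used here do not say.

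Glycolysis splits glucose into pyruvate in the cytosol, with a small yield of ATP. Pyruvate is then either reduced to lactate and exported, or carried into mitochondria and oxidised by the pyruvate dehydrogenase complex. T cells that are stimulated through the antigen receptor and CD28 take up more glucose and release much of it as lactate, and they raise the transporters and enzymes of this route while they grow and divide. KLF13 is a zinc-finger protein of the KLF/SP family, whose members bind GC-rich and CACCC elements of promoters.

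The arrays fell into 3 sets that differ in scale, and every comparison was made within a set. Replicate 1 (WT1, KO1) and replicates 2 and 3 (WT2, WT3, KO2, KO3) were in the exon-level table, with array medians of 5.21 and 5.23 log2 units in the first set and 6.25 to 6.43 in the second. Replicates 4 and 5 (WT4, WT5, KO4, KO5) were in a gene-level table with medians of 4.18 to 4.30. In the second set the bright end also differed with genotype: the 99th percentile of signal was 12.2 in WT2 and 12.3 in WT3 against 11.4 in KO2 and 11.6 in KO3, and KO3 had the narrowest interquartile range of all arrays, 3.10. Klf13 itself fell by 0.86 log2 units over all arrays (SE 0.12, n = 5 and 5, limma adjusted p = 0.0126) and was below each wild-type array of its set in 5 of 5 knockout arrays, which checks the labels only as far as its probe sets lie in the deleted part. Of the T cell markers, 9 of the 10 listed were in both tables and all 9 passed the brightness filter, against 2 of 7 B cell, 2 of 9 myeloid, 4 of 6 erythroid and 1 of 6 NK cell markers named in the exon-level table. In RNA from a whole culture, fewer cells of a type and less RNA per cell cannot be told apart.

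Ldha, Pkm and Tpi1 were the 3 genes of the set that passed the test over all arrays. Their promoters are shown because the family of KLF13 is known for the elements named above. Windows run from 250 bases before to 50 after the annotated start, were taken from RefSeq on the GRCm38.p6 assembly, and are written 5′ to 3′ along the gene. Capitals mark every match, on either strand, to CACCC, to the GC box GGGCGG, or to ACGTG, the core of hypoxia-response elements, which also lies inside the E-box CACGTG. Ldha and Pkm have a further window each in RefSeq that is not printed.

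Ldha, chr7:46845554-46845853, plus strand: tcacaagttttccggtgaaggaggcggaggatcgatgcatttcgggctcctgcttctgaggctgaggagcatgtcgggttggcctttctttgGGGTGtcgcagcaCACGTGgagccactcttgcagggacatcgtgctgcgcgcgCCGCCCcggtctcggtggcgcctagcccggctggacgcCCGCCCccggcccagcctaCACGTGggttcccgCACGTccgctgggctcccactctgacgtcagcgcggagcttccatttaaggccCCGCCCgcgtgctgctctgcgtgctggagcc

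Pkm, chr9:59656326-59656625, plus strand: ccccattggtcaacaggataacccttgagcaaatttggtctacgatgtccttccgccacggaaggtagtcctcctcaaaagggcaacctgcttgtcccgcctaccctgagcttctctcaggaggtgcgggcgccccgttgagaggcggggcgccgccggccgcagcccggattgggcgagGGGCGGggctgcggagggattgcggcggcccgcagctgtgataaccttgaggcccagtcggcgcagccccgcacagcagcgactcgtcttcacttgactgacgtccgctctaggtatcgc

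Tpi1, chr6:124814109-124814408, minus strand: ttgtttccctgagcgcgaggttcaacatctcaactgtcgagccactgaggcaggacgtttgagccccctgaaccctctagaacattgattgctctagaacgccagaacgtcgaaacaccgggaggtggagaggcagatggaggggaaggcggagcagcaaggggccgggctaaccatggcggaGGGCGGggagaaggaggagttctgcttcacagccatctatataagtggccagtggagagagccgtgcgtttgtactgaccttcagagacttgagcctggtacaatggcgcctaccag

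The printed Ldha window held 1 CACCC match, 3 GGGCGG matches and 5 ACGTG matches, of which the palindromic CACGTG sites each count on both strands. The printed Pkm and Tpi1 windows held 1 GGGCGG match each and none of the others, which says only that these letters are not in these windows. The further Pkm window held 3 CACCC and 2 ACGTG matches, and the further Ldha window 1 CACCC match. Among the 51 windows found for 34 of the 35 genes, 66.7% held CACCC, 56.9% GGGCGG, 45.1% ACGTG and 11.8% CACGTG. Among all 12724 windows of tested genes the shares were 64.7%, 61%, 24.8% and 9.7%, and among all 32851 windows 57.5%, 35.7%, 19.6% and 7.2%. Windows of one gene can overlap, and a match is no evidence of binding.

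Most of the pathway read lower in the knockout cells, and the genes that passed over all arrays belong to the stretch from triose phosphate to lactate. Over all arrays, with the 3 sets as a block, Ldha, Pkm and Tpi1 fell and no gene of the set rose. Across all tested genes 0.489% were called lower and 0.0961% higher at an adjusted p under 0.05 (limma). Among the 624 brightest genes (the top 5%) 15 were called lower and 0 higher. Of the 31 tested members 30 had a difference below 0, as did 7933 of the 12485 tested genes and 611 of the 624 brightest. An unadjusted p under 0.05 was found for 17 members, for 1866 of all tested genes and for 356 of the 624 brightest. The members' median difference was -0.42 log2 units, beside -0.10 over all tested genes and -0.39 over the brightest 5% of them, so neither this median nor the count below 0 sets the members apart from bright genes. For 16 of the 31 members all 5 knockout arrays lay below each wild-type array of their set. The same held for 10.8% of all genes and for 207 of the 624 brightest. For none of the 31 members did all 5 lie above, where 1.63% of all genes and 0 of the 624 brightest did.

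**Figure D1:**
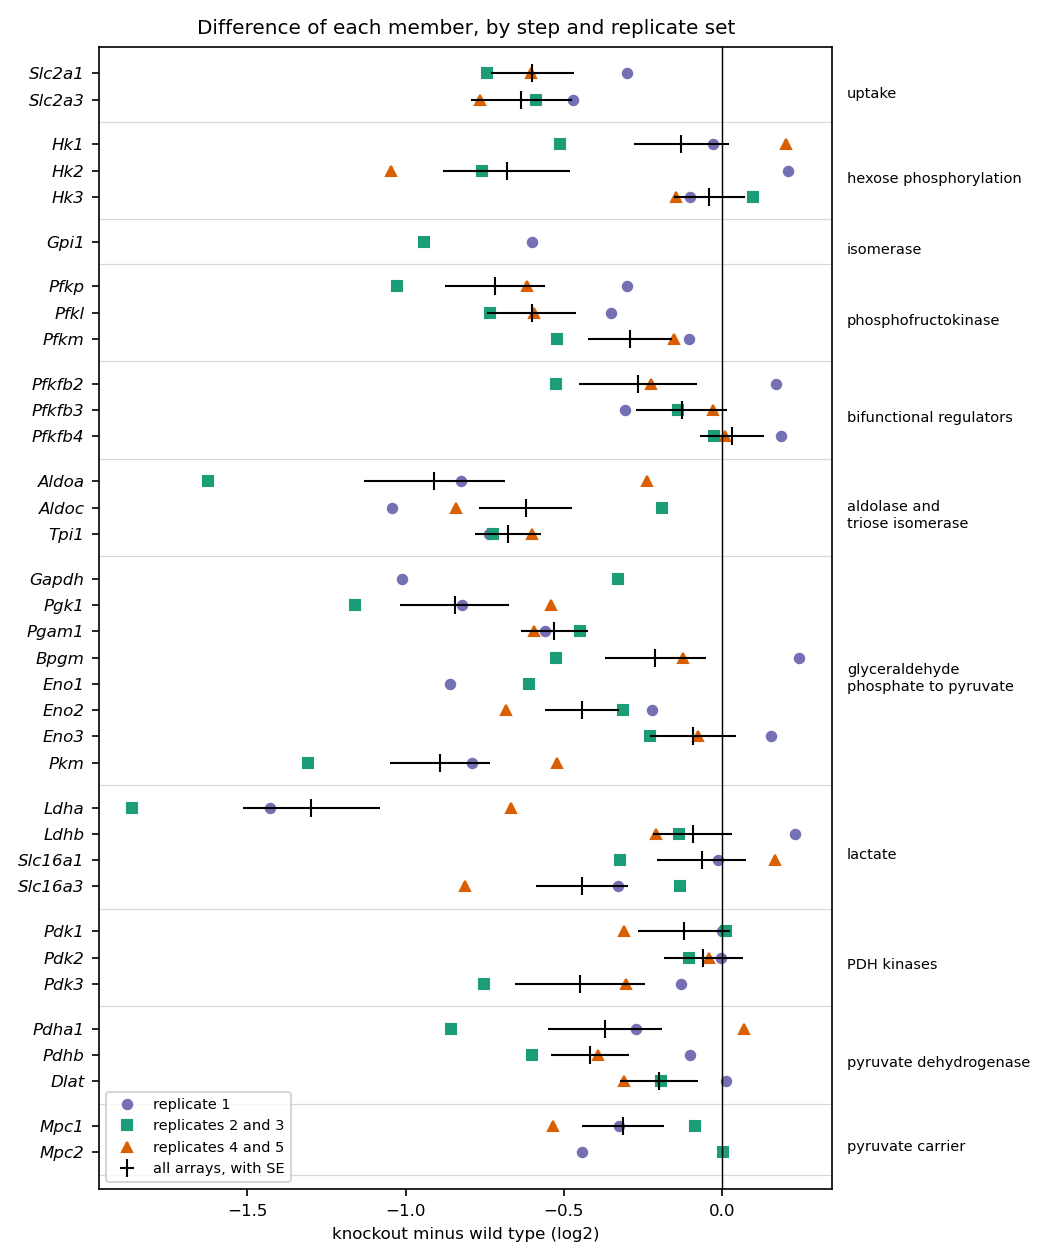
Difference of each gene between knockout and wild type, in log2 units, grouped by step. Coloured points are the differences within replicate 1, replicates 2 and 3, and replicates 4 and 5, and black ticks with bars are the difference over all arrays with its standard error. Genes without a black tick were measured in the exon-level table alone. Most points lie left of 0, with Ldha farthest left at -1.86 in replicates 2 and 3, while the black ticks of Pfkfb4, Hk3, Slc16a1 and Pdk2 lie close to 0.

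The 3 sets did not weigh equally. In replicates 4 and 5, whose arrays shared a scale and a bright end, 9 members fell and none rose: Slc2a3, Hk2, Pfkl, Aldoc, Tpi1, Pgam1, Eno2, Ldha and Slc16a3. There 1.99% of all genes were called lower and 0.721% higher, and of the 624 brightest 15 were called lower and 0 higher. The members' median in that set was -0.31, beside -0.01 over all genes and -0.08 over the brightest 5%. There 17 members had an unadjusted p under 0.05, as did 1993 of the 12485 genes and 88 of the 624 brightest. In replicates 2 and 3 alone limma called 0 members and 0% of all genes. An unadjusted p under 0.05 was found there for 10 members, for 1188 genes and for 418 of the 624 brightest. The members' median there was -0.52, beside -0.22 over all genes and -0.79 over the brightest 5%, so bright genes as a whole were lower still. In replicate 1, with 1 array of each genotype and so no test, the members' median was -0.22. It was -0.02 over all genes and -0.19 over the brightest 5%. Altogether 19 of the 31 members were lower in all 3 sets, as were 3092 of the 12485 genes and 357 of the 624 brightest. This count therefore does not set the members apart from bright genes. No member was higher in all 3 sets, as were 1405 of the 12485 genes and 2 of the 624 brightest.

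Glucose uptake was read by Slc2a1 and Slc2a3, which encode the transporters GLUT1 and GLUT3. Slc2a3 read 8.02 in WT1 against 7.55 in KO1, 7.98 and 8.08 in WT2 and WT3 against 7.89 and 7.003 in KO2 and KO3, and 10.17 and 10.03 in WT4 and WT5 against 9.41 and 9.26 in KO4 and KO5. The genotypes did not overlap in any set, although KO2 came close to WT2, and KO3 was the lowest array of its set. Slc2a3 fell by 0.77 log2 units in replicates 4 and 5 (SE 0.13, adjusted p = 0.0199), while the difference over all arrays was -0.64 (SE 0.16, adjusted p = 0.137). Slc2a1 read 9.36 against 9.06, 9.96 and 10.14 against 9.53 and 9.08, and 10.18 and 10.18 against 9.43 and 9.72, in the same order of arrays. It was lower in 5 of 5 knockout arrays, with a difference of -0.60 (SE 0.13, adjusted p = 0.0816).

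Hexokinases trap glucose in the cell by phosphorylating it. Hk2, the inducible form, read 8.58 in WT1 against 8.79 in KO1, 9.39 and 9.54 in WT2 and WT3 against 9.10 and 8.31 in KO2 and KO3, and 8.49 and 8.53 in WT4 and WT5 against 7.42 and 7.51 in KO4 and KO5. It was thus higher in the knockout in replicate 1 and lower in the other sets, with no overlap there. In replicates 4 and 5 Hk2 fell by 1.05 log2 units (SE 0.12, adjusted p = 0.00489), the largest difference of any tested member in that set, and over all arrays it differed by -0.68 (SE 0.20, adjusted p = 0.194). Hk3 differed by -0.04 (SE 0.11).

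Hk1, the housekeeping hexokinase, depended on which probe set was read. Its brightest gene-level probe set, 10414661, read 11.92 and 11.91 in WT4 and WT5 against 12.09 and 12.15 in KO4 and KO5. The other one, 10369541, read 8.71 and 8.61 against 8.31 and 8.38 and so pointed the other way. A further 16 gene-level probe sets name Hk1 together with 1 or more other genes, with a median wild-type signal of 11.7, and all 16 had a knockout mean above wild type, by 0.01 to 0.24. These 16 probe sets may not be independent of each other. The exon-level probe sets of Hk1 are numbered 10369542 to 10369566, next to 10369541 and apart from 10414661. The value of Hk1 in replicates 4 and 5, taken from the brighter probe set by rule, is therefore uncertain.

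Glucose-6-phosphate isomerase, Gpi1, read 10.95 in WT1 against 10.35 in KO1 and 11.16 and 11.29 in WT2 and WT3 against 10.30 and 10.26 in KO2 and KO3. Each knockout array was lower than every wild-type array of its set, with a difference of -0.60 in replicate 1 and -0.94 in replicates 2 and 3.

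Phosphofructokinase commits sugar to glycolysis, and its 3 subunit genes were all lower in 5 of 5 knockout arrays. Pfkl, the liver-type subunit, read 8.33 in WT1 against 7.98 in KO1, 8.68 and 8.73 in WT2 and WT3 against 8.31 and 7.64 in KO2 and KO3, and 9.11 and 9.20 in WT4 and WT5 against 8.50 and 8.61 in KO4 and KO5. It fell by 0.59 in replicates 4 and 5 (SE 0.12, adjusted p = 0.0421), and over all arrays it differed by -0.60 (SE 0.14, adjusted p = 0.105). Pfkp, the platelet-type subunit, had the larger difference over all arrays and the smaller p of the step. It read 9.44 against 9.14, 10.46 and 10.68 against 9.82 and 9.26, and 10.16 and 10.06 against 9.35 and 9.65, a difference of -0.72 (SE 0.16, adjusted p = 0.0776). Pfkm, the muscle-type subunit, differed by -0.29 (SE 0.13), and KO3 was farthest from its wild-type mean, at -0.77.

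The bifunctional enzymes that make and remove fructose 2,6-bisphosphate, the activator of phosphofructokinase, did not pass in any set. Pfkfb2 had the smallest p of them and read 5.52 in WT1 against 5.69 in KO1, 6.80 and 6.97 in WT2 and WT3 against 6.87 and 5.85 in KO2 and KO3, and 6.10 and 6.11 in WT4 and WT5 against 5.92 and 5.84 in KO4 and KO5. The genotypes overlapped in replicates 2 and 3, and KO3 alone was far below. Its difference over all arrays was -0.27 (SE 0.19, adjusted p = 0.468). Pfkfb3 differed by -0.13 (SE 0.14), and Pfkfb4, at 0.03 (SE 0.10), was the one member above 0.

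Triose phosphate isomerase, Tpi1, which interconverts the products of aldolase, passed both over all arrays and in replicates 4 and 5. It read 10.91 in WT1 against 10.18 in KO1, 10.66 and 10.75 in WT2 and WT3 against 9.97 and 9.99 in KO2 and KO3, and 10.85 and 10.85 in WT4 and WT5 against 10.34 and 10.16 in KO4 and KO5. Every knockout array was below every wild-type array of its set, with differences of -0.74, -0.72 and -0.60 in the 3 sets. Over all arrays Tpi1 fell by 0.68 (SE 0.10, adjusted p = 0.0198), to 0.626 of wild type, and in replicates 4 and 5 it fell by 0.60 (SE 0.13, adjusted p = 0.0425).

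The aldolases, which split fructose 1,6-bisphosphate, took different courses across the sets. Aldoa differed by -0.82 in replicate 1, -1.62 in replicates 2 and 3 and -0.24 in replicates 4 and 5, and by -0.91 over all arrays (SE 0.22, adjusted p = 0.127). Aldoc read 6.95 in WT1 against 5.91 in KO1, 6.08 and 6.20 in WT2 and WT3 against 6.002 and 5.89 in KO2 and KO3, and 8.06 and 8.02 in WT4 and WT5 against 7.13 and 7.27 in KO4 and KO5. It was thus near wild type in replicates 2 and 3, at -0.19, where Aldoa was lowest. Aldoc fell by 0.84 in replicates 4 and 5 (SE 0.12, adjusted p = 0.0129), and over all arrays it differed by -0.62 (SE 0.15, adjusted p = 0.111).

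From glyceraldehyde 3-phosphate to pyruvate the enzymes oxidise the triose and make the ATP of the pathway. Pkm encodes the pyruvate kinase that ends it. It read 10.99 in WT1 against 10.20 in KO1, 11.53 and 11.55 in WT2 and WT3 against 10.03 and 10.44 in KO2 and KO3, and 11.13 and 11.03 in WT4 and WT5 against 10.43 and 10.68 in KO4 and KO5. The genotypes did not overlap in any set, and the difference was largest in replicates 2 and 3. There the bright exon-level probe sets 10585935 to 10585937 read 14.42 to 14.62 in WT2 against 11.53 to 11.57 in KO2, whose 99th percentile was 11.4. The other Pkm probe sets differed by -1.14 to 0.68 in that set. The part of the lower bright end in this size was not tested. Over all arrays Pkm fell by 0.89 (SE 0.16, adjusted p = 0.0345), to 0.54 of wild type, and in replicates 4 and 5 it differed by -0.52 (SE 0.13, adjusted p = 0.0822). With the median of its exon-level probe sets in place of the mean, the difference over all arrays was -0.65 (limma adjusted p = 0.082).

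Pgam1, phosphoglycerate mutase, and Eno2, the neuron-type enolase, passed in replicates 4 and 5. Pgam1 read 9.26 in WT1 against 8.70 in KO1, 9.51 and 9.55 in WT2 and WT3 against 8.996 and 9.17 in KO2 and KO3, and 9.75 and 9.89 in WT4 and WT5 against 9.25 and 9.21 in KO4 and KO5. It was lower by a like amount in each set and fell by 0.59 in replicates 4 and 5 (SE 0.12, adjusted p = 0.0425), with -0.53 over all arrays (SE 0.11, adjusted p = 0.0539). Eno2 read 6.61 against 6.39, 6.86 and 6.80 against 6.52 and 6.52, and 7.98 and 7.91 against 7.23 and 7.29. It also showed no overlap and fell by 0.68 in replicates 4 and 5 (SE 0.12, adjusted p = 0.0242), with -0.44 over all arrays (SE 0.12, adjusted p = 0.153).

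Pgk1, phosphoglycerate kinase, was lower in 5 of 5 knockout arrays, with differences of -0.82, -1.16 and -0.54 in the 3 sets, and came close to the threshold without passing (-0.84 over all arrays, SE 0.17, adjusted p = 0.0575). Bpgm, which diverts the pathway into 2,3-bisphosphoglycerate, and Eno3, the muscle-type enolase, differed by -0.21 (SE 0.16) and -0.09 (SE 0.14). The main enolase, Eno1, read 10.86 in WT1 against 10.00 in KO1 and 10.90 and 10.77 in WT2 and WT3 against 10.02 and 10.43 in KO2 and KO3, with no overlap. Gapdh, the dehydrogenase at the start of this stretch, rested on 1 single-gene probe set. That probe set read 12.26 against 11.25 in replicate 1 and 12.29 and 12.09 against 10.88 and 12.85 in replicates 2 and 3, so KO3 was above both wild-type arrays and KO2 below.

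Probe sets that name Gapdh together with other genes were more numerous. In replicate 1 all 8 of them in the exon-level table were lower in the knockout, with a median of -1.12, and in replicates 2 and 3 6 of 8 had both knockout arrays below both wild-type arrays, with a median of -0.74. In replicates 4 and 5 all 25 gene-level probe sets had both knockout arrays below both wild-type arrays, with differences of -0.26 to -0.10 and a median of -0.20. These probe sets may bind RNA of near-identical copies and are not independent of each other.

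Ldha, the lactate dehydrogenase subunit that favours lactate formation, had the largest difference of the tested members over all arrays. In replicates 4 and 5 Hk2, Aldoc, Slc16a3, Slc2a3 and Eno2 had larger differences than Ldha. Ldha read 11.86 in WT1 against 10.43 in KO1, 12.71 and 12.80 in WT2 and WT3 against 10.49 and 11.29 in KO2 and KO3, and 11.80 and 11.77 in WT4 and WT5 against 11.05 and 11.19 in KO4 and KO5. Every knockout array was below every wild-type array of its set, and the gap was widest in replicates 2 and 3 (-1.86) and narrowest in replicates 4 and 5 (-0.67). Over all arrays Ldha fell by 1.30 (SE 0.22, adjusted p = 0.0306), to 0.407 of wild type, and in replicates 4 and 5 it fell by 0.67 (SE 0.12, adjusted p = 0.0279). Its partner subunit Ldhb, which favours pyruvate formation, differed by 0.23, -0.14 and -0.21 in the 3 sets and by -0.09 over all arrays (SE 0.12). In RefSeq gene order on GRCm38.p6, 22 tested genes lie between Ldha and Klf13 on chromosome 7, against 159 for Gpi1 and 323 for Aldoa, and the part of this linkage in the result was not tested.

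Lactate leaves the cell through the monocarboxylate transporters MCT4, encoded by Slc16a3, and MCT1, encoded by Slc16a1. Slc16a3 read 7.68 in WT1 against 7.35 in KO1, 7.60 and 7.46 in WT2 and WT3 against 7.45 and 7.34 in KO2 and KO3, and 8.89 and 8.82 in WT4 and WT5 against 8.22 and 7.86 in KO4 and KO5. The groups did not overlap, although KO2 lay just under WT3. Slc16a3 fell by 0.81 in replicates 4 and 5 (SE 0.15, adjusted p = 0.025), and over all arrays it differed by -0.44 (SE 0.15, adjusted p = 0.232). Slc16a1 differed by -0.01, -0.32 and 0.17 in the 3 sets and by -0.06 over all arrays (SE 0.14).

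**Figure D2:**
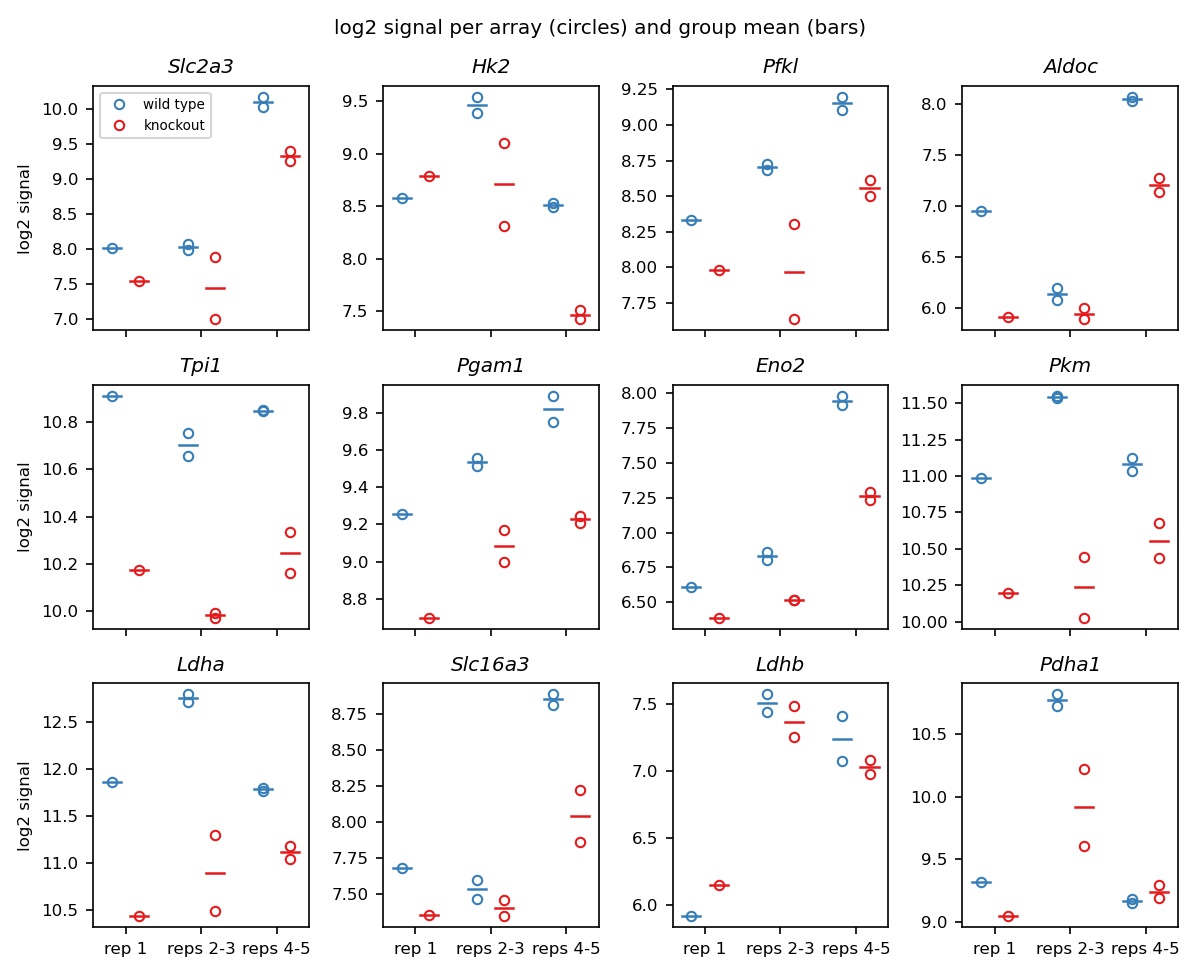
Signal of 12 members in each array, in log2 units, by replicate set, each panel on its own scale. Circles are single arrays of wild-type (blue) and knockout (red) mice and bars are group means. Ldha, Tpi1, Pkm, Pgam1 and Eno2 show knockout circles below wild-type circles in each set, Hk2 is reversed in replicate 1, and Ldhb and Pdha1 show overlap or a change of order between sets.

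No gene of pyruvate entry passed in any set. The pyruvate dehydrogenase kinases switch the complex off. Pdk3 read 6.54 in WT1 against 6.41 in KO1, 7.61 and 7.73 in WT2 and WT3 against 7.54 and 6.30 in KO2 and KO3, and 6.98 and 6.97 in WT4 and WT5 against 6.68 and 6.66 in KO4 and KO5. It was lower in 5 of 5 knockout arrays, but KO3 lay at -1.37 from its wild-type mean and the other arrays at -0.31 to -0.13, and the difference over all arrays was -0.45 (SE 0.21, adjusted p = 0.338). Pdk1 and Pdk2 differed by -0.12 (SE 0.15) and -0.06 (SE 0.13).

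Of the pyruvate dehydrogenase subunits, Pdhb had the smallest p. It read 9.08 in WT1 against 8.97 in KO1, 10.57 and 10.60 in WT2 and WT3 against 10.14 and 9.83 in KO2 and KO3, and 8.21 and 8.16 in WT4 and WT5 against 7.69 and 7.89 in KO4 and KO5. There was no overlap, and the difference over all arrays was -0.42 (SE 0.12, adjusted p = 0.194). Pdha1, the other E1 subunit, differed by -0.27, -0.86 and 0.07 in the 3 sets, and Dlat, the E2 acetyltransferase, by 0.01, -0.19 and -0.31. Over all arrays these came to -0.37 (SE 0.18) and -0.20 (SE 0.12).

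The mitochondrial pyruvate carrier is built from MPC1 and MPC2. Mpc1 read 5.54 in WT1 against 5.21 in KO1, 6.91 and 6.94 in WT2 and WT3 against 6.63 and 7.05 in KO2 and KO3, and 6.27 and 6.40 in WT4 and WT5 against 5.76 and 5.83 in KO4 and KO5. KO3 was above its wild-type arrays and the other 4 knockout arrays were below theirs, with a difference of -0.31 (SE 0.13, adjusted p = 0.297). Mpc2, read in the exon-level table alone, differed by -0.44 in replicate 1 and by 0.00 in replicates 2 and 3, where KO2 lay at 0.21 and KO3 at -0.20 from the wild-type mean.

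Bright genes as a whole read lower in the knockout arrays of replicates 2 and 3, and many glycolytic genes are bright, so each member was set beside genes of like brightness. Tested genes were sorted into 20 bins of equal number by mean signal over the arrays of the table. In the brightest bin the median difference of all genes was -0.18 in replicate 1, -0.78 in replicates 2 and 3 and -0.05 in replicates 4 and 5. Relative to the median of their own bins, 20, 19 and 26 of the 31 members were lower in the 3 sets, with a median gap of -0.12, -0.10 and -0.27.

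Single members stood differently against their bins. Relative to its bin median Ldha lay at -1.24, -1.09 and -0.62 in the 3 sets, and Pkm at -0.61, -0.53 and -0.47. Tpi1 lay at -0.55 in replicate 1 and in replicates 4 and 5, but at 0.05 in replicates 2 and 3, where its difference was close to that of bright genes in general. Slc2a1 (0.03) and Pgam1 (0.33) were likewise above their bin in replicates 2 and 3. The T cell markers shifted in the same set as the bright genes, with medians of -0.31, -0.67 and 0.05 in the 3 sets. Their summed signal was 13.2 in WT1 against 12.7 in KO1, 14.2 to 14.3 against 13.1 to 13.2 in replicates 2 and 3, and 13.3 to 13.5 against 13.4 to 13.5 in replicates 4 and 5. The part of this shift in the members' differences was not tested.

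**Figure D3:**
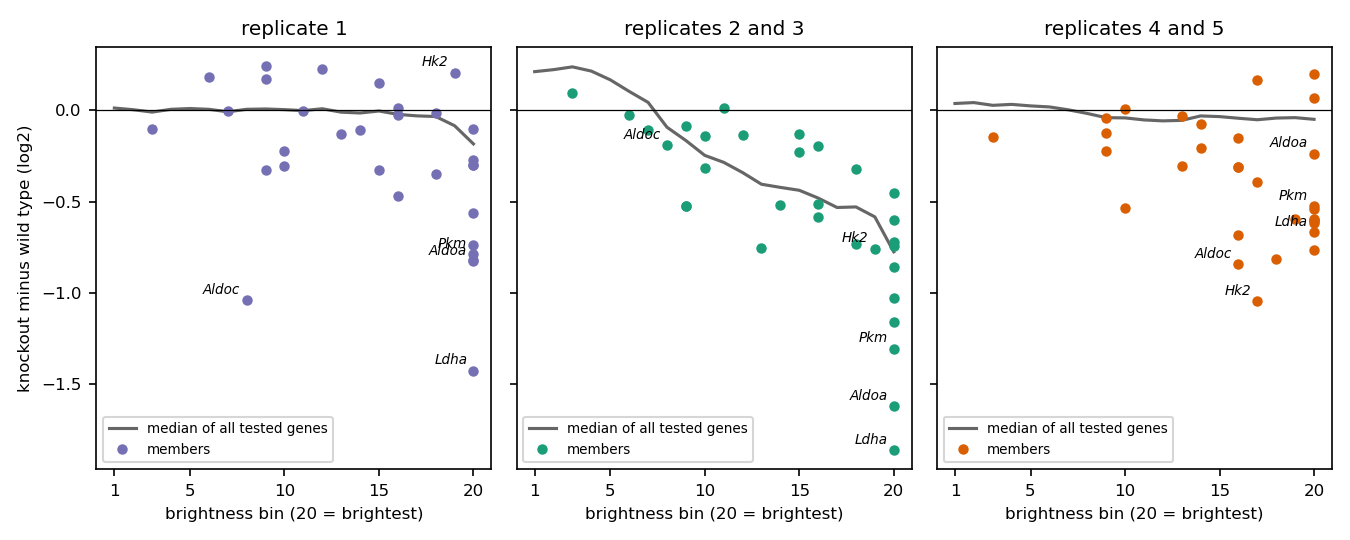
Difference between knockout and wild type in log2 units against brightness bin, from 1 (dimmest) to 20 (brightest), in each replicate set. Points are the 31 tested members and the line is the median of all tested genes in the bin. The line drops to -0.78 in the brightest bin of replicates 2 and 3 and stays near 0 in replicates 4 and 5, where 26 members lie under it.

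Within a gene the exon-level probe sets can be read one by one. All 7 Ldha probe sets were lower in KO1, with differences of -1.87 to -0.98, and all 7 had both KO2 and KO3 below both wild-type arrays, with differences of -3.02 to -0.84. The bright Ldha probe sets 10553305 to 10553308 read 11.26 to 11.85 in KO2, whose 99th percentile of signal was 11.4. In WT2 they read 14.07 to 14.91, with a 99th percentile of 12.2. The part of this lower bright end in the sizes of the differences was not tested. Of the other bright genes, Aldoa was lower in KO1 in 8 of 9 probe sets, Tpi1 in 6 of 6, Gpi1 in 7 of 7, Eno1 in 6 of 6 and Pkm in 6 of 7. Both KO2 and KO3 were below both wild-type arrays in 7 of 9 Aldoa, 5 of 6 Tpi1, 5 of 7 Gpi1, 4 of 6 Eno1 and 5 of 7 Pkm probe sets. Bright genes as a whole read lower in this set, with a median of -0.78 in the brightest bin. The share of all exon-level probe sets with this pattern was not counted, so these counts do not set the genes apart. Pgk1 had 19 probe sets with only 15 distinct sets of values, so some are copies, and 14 of these 15 were lower in KO1. In the gene-level table too, 2 of the 3 probe sets of Pgk1 held the same values, as did 2 of the 3 of Pgam1, so signal from near-identical copies of these genes may be mixed in. Aldoc was lower in KO1 in 9 of 9 probe sets and in both KO2 and KO3 in 2 of 9. Probe sets of one gene in one array share their RNA and are not replicates.

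**Figure D4:**
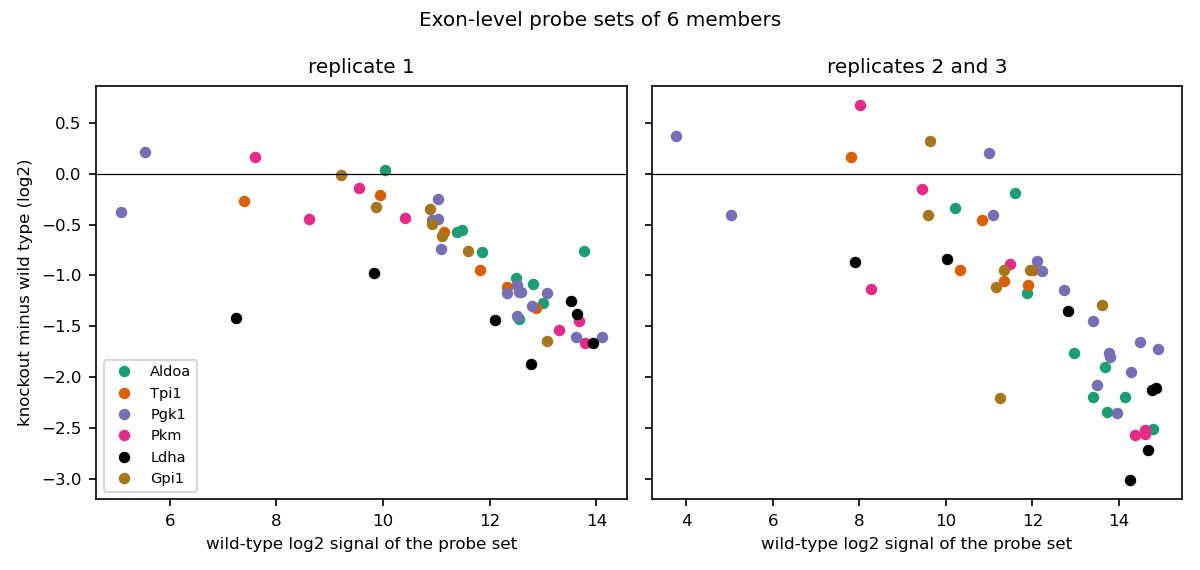
Difference between knockout and wild type of single exon-level probe sets against their wild-type signal, both in log2 units, for 6 members, in replicate 1 and in replicates 2 and 3. Each point is a probe set. Ldha points are below 0 in both panels, and the brighter probe sets of all 6 genes tend to lie lower, down to -3.02 for Ldha in replicates 2 and 3.

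Whether the knockout effect differed between the 2 tables was tested as an interaction. With limma 0 members and 0% of all genes passed. An unadjusted p under 0.05 was found for 4 members, for 658 of the 12485 genes and for 178 of the 624 brightest. The gene-level difference minus the exon-level difference was 1.12 for Aldoa (SE 0.32), 1.05 for Ldha (SE 0.33), 0.73 for Pdha1 (SE 0.31) and -0.62 for Slc16a3 (SE 0.24), all at an adjusted p of 0.872. Its median was 0.03 over the members, 0.10 over all genes and 0.52 over the brightest 5%. The tables differ in scale and in probe sets as well as in animals, which cannot be told apart.

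Other genes around the pathway were read in short lists. Over all tested genes 0.489% were called lower and 0.0961% higher with limma, and 1866 of the 12485 had an unadjusted p under 0.05. Counts of 0 calls in lists this short therefore do not set them apart from other genes. Of 12 tested sugar transporters and glycolytic isozymes outside the set 0 passed with limma, with 2 at an unadjusted p under 0.05, and their median was -0.01. None of 5 genes of gluconeogenesis and opposing reactions passed (0 at an unadjusted p under 0.05, median 0.03), nor of 5 further pyruvate dehydrogenase genes (0, median -0.12), nor of 6 pentose phosphate genes (1, median -0.17). Of 9 regulators of glycolytic genes 1 passed: Irf4, a transcription factor induced by T cell receptor signals, fell by 0.88 over all arrays (SE 0.13, adjusted p = 0.0173) and by 0.87 in replicates 4 and 5 (SE 0.15, adjusted p = 0.0231). Irf4 read 10.45 in WT1 against 9.97 in KO1, 11.24 and 11.36 in WT2 and WT3 against 10.17 and 10.25 in KO2 and KO3, and 9.53 and 9.67 in WT4 and WT5 against 8.92 and 8.53 in KO4 and KO5, with no overlap.

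The calls of Ldha, Pkm and Tpi1 rest on few arrays. Leaving out any 1 of WT1, WT2, WT3, WT4, WT5, KO1, KO4 or KO5 left no member past the threshold, whereas without KO2 there were 5 and without KO3 there were 12. The direction held: over the 25 alternatives and the setting used here, each of the 3 genes was lower in 26 of 26 settings. The adjusted p stayed under the threshold in 13 of 26 for Ldha (0.000428 to 0.176), in 11 of 26 for Pkm and in 11 of 26 for Tpi1. With a cyclic loess fit within each set, which by its construction evens out differences that follow brightness, Ldha still fell, by 0.78 (adjusted p = 0.0188), while Pkm (-0.47, adjusted p = 0.0904) and Tpi1 (-0.31, adjusted p = 0.406) did not pass.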

How the data were processed

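Total RNA of CD3+ spleen T cells from 5 wild-type and 5 KLF13 knockout mice was amplified with oligo(dT) priming and a 3' IVT kit, per the labels' protocols. The deposited values are log2 signals, for which the submitters' processing notes name RMA. For its version, any further step and the genome build: not given in the sources used here. Replicates 1 to 3 were deposited in an exon-level table of 241576 probe sets and replicates 4 and 5 in a gene-level table of 35556, and each column had its sample. Genes were assigned from the arrays' annotation, brought to current symbols with RefSeq (GRCm38.p6). At exon level 212097 probe sets had 1 gene, 4475 several and 25004 none, and at gene level these were 21789, 1621 and 12146. Only probe sets with 1 gene were used.

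Exon-level probe sets were averaged per gene, and at gene level the brightest probe set stood for the gene. A gene was tested if its mean signal reached the 30th percentile in both tables. Knockout minus wild type was fitted with limma 3.58.1 in R 4.3.3 (lmFit and eBayes, 2-sided, Benjamini-Hochberg over all tested genes, adjusted p under 0.05), with the replicate set as a fixed block for all arrays. Replicates 2 and 3, replicates 4 and 5 and the difference between the tables were fitted separately. The procedure was also run on simulated data with independent noise for each gene and array. Those data held no shift that follows brightness, so the run does not bear on the bright end of replicates 2 and 3. The number of arrays limits the precision.

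The members and lists were chosen with earlier results of these data known. Values in every array are given for the members that passed over all arrays or in replicates 4 and 5, for the member of smallest p in each step, and for members higher in all 3 sets. Of the other lists, members that passed are named. Values of Eno1 and Gapdh were added, and Aldoa, Hk1 and Pgk1 are described further, after their values were seen. Alternatives were quantile and loess normalization, median centring, other gene values, blocks, filters and variance models, array weights, and leaving out each array.

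Markers of B, myeloid, erythroid and NK cells were read beside those of T cells: of their tested members 0 passed with limma and 0 had an unadjusted p under 0.05. Over all tested genes 1866 of 12485 had such a p, so 0 in lists this short does not set these markers apart.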

Additional observations from a re-analysis of the deposited data

Results flagged for a closer look

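In 3 members 1 of the 5 knockout arrays stood apart from the others when each was taken as its difference from the wild-type mean of its set. KO3 lay at -0.767 for Pfkm and at -1.37 for Pdk3, the lowest value in both. KO4 lay at -0.512 for Tpi1, the least negative of its 5 values. By chance about 1 in 20 groups is marked in this way, and 31 members were screened.

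In 2 members both knockout arrays lay below both wild-type arrays in replicates 2 and 3 and above both in replicates 4 and 5. Slc16a1, Hk3, Pfkfb4 and Pdk1 also had mean differences of opposite sign in these sets, but with overlapping arrays in at least 1 of them. The difference between the tables was 0.553 for Hk1 and 0.734 for Pdha1, and neither passed the test of that difference (limma adjusted p = 0.872). For Hk1 the gene-level value comes from a probe set that disagreed with the other one of this gene.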

How the results depend on the processing

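Over all arrays no alternative called a member higher. Ldha alone passed under quantile normalization per table or cyclic loess (1 member each), Tpi1 alone under medians of exon-level probe sets (1). No member passed with those medians plus quantile normalization per set, with the table as block, or with trended robust variances (0 each). Array weights called 14 members, and leaving out replicates 2 and 3, chosen after seeing the data, 9. The members' median moved to -0.26 under quantile normalization per table or per set and to -0.25 under loess. Genes called lower and higher were 24 and 7 with probe-set medians, 24 lower with medians plus quantile, 4 and 0 with the table as block, 37 lower with trended variances, 359 and 145 with array weights, 165 and 87 without replicates 2 and 3, and 21 higher under loess.

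Leaving out 1 array gave 0 to 12 members, 10 to 257 genes lower and 1 to 101 higher. In replicates 4 and 5 it gave 4 members (without KO4) to 8, with medians of -0.47 to -0.31. In replicates 2 and 3 it gave 0 to 25, with 25 without KO2 and 12 without KO3, and medians of -0.71 to -0.29. An arm then holds 1 array, assumed to vary like the other. Between the tables it gave 0 or 1 member lower, 0 to 2 higher and medians of -0.13 to 0.15, the 3 calls (Aldoa, Ldha and Hk2) coming without KO3.

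Same-numbered samples of the genotypes are separate mice, and their deviations from the group means correlated at r = -0.424 in replicates 2 and 3 and -0.241 in replicates 4 and 5, so the numbers were not taken as pairs. With the replicate number as a block, 19 genes were lower, 4 higher and 0 members passed over all arrays, while 14 members passed in replicates 4 and 5 and 2 (Aldoa and Ldha) in replicates 2 and 3. In replicates 2 and 3 the median of all genes was -0.22 as deposited, -0.12 with array medians subtracted, -0.06 after quantile normalization and 0.00 after loess. The members' median was -0.29 after quantile normalization per table or per set and -0.15 after loess, with 23 and 19 of 31 below 0, and array weights called 3 members there. The median difference between tables became -0.22 under loess and -0.13 with array weights. Counting identical probe sets once, also chosen after seeing the data, changed no count of members. The causes of these changes were not tested.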
